A study of Homo sapiens with 15 samples.

Results

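The histone genes were examined as a group in RNA pelleted from human cell extracts. Genes were taken by symbol (older names starting HIST1H, HIST2H, HIST3H, HIST4H, H2AF, H3F or H1F, or the newer names of the same genes), which gave 93 protein-coding genes, 71 replication-dependent genes of the histone clusters and 22 other genes, called variants here. A gene was kept where at least 2 replicates of at least 1 condition had 10 or more counts, which left 41 histone genes, 32 replication-dependent and 9 variant, among 20855 kept genes of the 57500 in the count tables. Another 53 genes whose names matched, such as pseudogenes and antisense genes, were left out. The kept genes held 99.18% of all counts on the 71 replication-dependent genes and 99.99% of those on the 22 variant genes. Of the genes not kept, 39 were replication-dependent, 9 of them at 0 in every library, and the highest had 114 counts over the 15 libraries. The other 13 were variants, 2 at 0 in every library, and the highest had 54.

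The extracts came from U2OS, a human osteosarcoma cell line, and were cytosolic extracts (CE) made by swelling the cells in a hypotonic buffer and shearing them through a needle. Extract was kept for 2 h with double-stranded RNA (dsRNA, 250 nM), with silvestrol, which blocks the initiation helicase eIF4A (2 µg/ml), with the crowder PEG (1%), or with nothing added (mock), and condensates were collected by centrifugation. Input is extract that was not pelleted. No incubation time is given for input, so pelleting and incubation cannot be told apart in a comparison with it. Each of the 5 groups had 3 biological replicates, and RNA was selected for poly(A) tails before sequencing, so an RNA without a tail was measured only as far as it passed that selection. All libraries came from 1 cell line, the labels give the cells as wild type, and the condensates of the study are named after YFP-G3BP1. The comparisons ask which histone mRNAs were more or less abundant in each pellet than in input, and whether the pellets differed from mock.

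Replication-dependent histone genes make the bulk of the core and linker histones during S phase, when new DNA must be packaged. Their mRNAs are the only cellular mRNAs of animals known to end without a poly(A) tail: a conserved stem-loop near the end of the transcript is bound by the stem-loop binding protein (SLBP), the U7 snRNP guides the cleavage after it, and the mRNAs are degraded when DNA synthesis stops. Variant genes such as H2AFZ and H3F3B lie outside the clusters, make polyadenylated mRNAs and are expressed throughout the cell cycle. Some cluster genes also make longer, polyadenylated transcripts that read past the stem-loop.

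The stem-loop was searched for in the annotated transcripts of GENCODE 29, on the transcript strand only, as 16 bases that pair into a stem of 6 base pairs with a loop of 4, closed by GG and CC, with pyrimidines in the rest of the 5′ arm, TT at the start of the loop and at most 1 G-U pair. It was found in 18 of the 32 replication-dependent genes and in 1 of the 9 variants, H2AFX, whose mRNA is known to be made in both forms. The annotated models of 10 other replication-dependent genes held coding bases only, so their stem-loop could not be looked for. The sequences below are shown because they mark the class and because several lie far inside the annotated transcript. Capitals mark the 16 bases of the stem-loop, with 5 bases on either side in lower case, 5′ to 3′.
HIST1H4E: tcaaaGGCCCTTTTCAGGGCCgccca
HIST1H4B: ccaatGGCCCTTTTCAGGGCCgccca
HIST1H4I: aaaaaGGCCCTTTTTAGGGCCcctaa
HIST1H2BD: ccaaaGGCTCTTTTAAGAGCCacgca
HIST2H2BE: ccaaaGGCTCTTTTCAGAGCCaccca
HIST1H2AC: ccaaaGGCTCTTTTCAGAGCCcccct
HIST1H2AG: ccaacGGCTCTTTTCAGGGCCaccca
H2AFX: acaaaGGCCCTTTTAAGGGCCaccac

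On GRCh38 these 26 bases lay at chr6:26204996-26205021 (plus strand) for HIST1H4E, chr6:26026896-26026921 (minus strand) for HIST1H4B, chr6:27139649-27139674 (plus strand) for HIST1H4I and chr6:26158582-26158607 (plus strand) for HIST1H2BD. They lay at chr1:149886183-149886208 (minus strand) for HIST2H2BE, chr6:26124664-26124689 (plus strand) for HIST1H2AC, chr6:27133510-27133535 (plus strand) for HIST1H2AG and chr11:119094893-119094918 (minus strand) for H2AFX. Each lay in the 3′ untranslated region of the annotated transcript. The core of HIST2H2BE and HIST1H2AC was shared by 7 kept genes of the H2A, H2B and H3 families, that of HIST1H4E and HIST1H4B by 5 H4 genes, that of HIST1H2BD by 3 H2B genes and that of HIST1H4I by 2 H4 genes. HIST1H2AG and H2AFX each had a core that no other kept gene held. The shortest annotated transcript went on for 39 bases after the stem-loop in HIST1H2BD and for 86 in HIST1H4B, but for 1022 in HIST1H4E, 1114 in HIST1H2AC, 1729 in HIST2H2BE and 821 in H2AFX. Within the last 100 bases of a transcript the stem-loop was found in 6 of the 32 replication-dependent genes (18.8%), in 0 of the 9 variants and in 1 of 14831 other protein-coding genes tested (0.00674%).

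Total counts ranged from 15341973 to 46939993 per library with a median of 35584710, and the PEG libraries were the shallowest, at 15341973 to 25675182. PEG replicate 1 stood apart from the other PEG replicates in many low replication-dependent genes, and the PEG counts, the splits of the class and the largest PEG changes are given with and without it. Levels are given as CPM, the counts scaled to 1 common library total, with TMM, edgeR's trimmed-mean normalisation, and fold changes on the log2 scale come from edgeR's quasi-likelihood test of the 6 libraries of a comparison, adjusted over all genes tested with a threshold of 0.05. Of the osteoblast-lineage and mesenchymal markers, RUNX2 averaged 67.4 CPM, SPARC 549.9 and VIM 1568 in input, whereas IBSP had no count there and COL1A2, SP7 and BGLAP averaged 0.117, 0.133 and 0.217 CPM. EPCAM, an epithelial marker, averaged 10.1 CPM. The strand setting of the counting is not given in the sources used here, and 10 of the 41 genes share exon bases with another gene, among them H1FX with H1FX-AS1 and H2AFY2 with AIFM2. Reads of near-identical copies could not be told apart in HIST2H4A (92.2% of its 150-base windows occur in another gene), HIST1H4J (72.8%), HIST1H4K (100%) and HIST1H2AI (51.7%), and their values are uncertain.

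Histone mRNAs were a small part of every poly(A)-selected library, and the 2 classes differed in measured level. These levels hold only for RNA that passed the selection, so the amounts of the 2 classes in the extract were not compared. On the scale of CPM without TMM scaling, the 71 replication-dependent genes took 232, 171 and 158 in the input libraries (187 ± 39.6, mean ± SD, n = 3). They took 179.6, 126 and 117 in mock, 166, 121 and 124 with dsRNA and 165, 119.7 and 119 with silvestrol. In all 9 pairs of a pellet with the input library of its own number the pellet was lower, at 0.702 to 0.788 of input, although the ranges of the groups overlapped, replicate 1 being the highest of each. With 3 pairs per pellet a two-sided exact sign test cannot go below 0.25. In PEG they took 419, 278 and 286 (327 ± 79.2), so all 3 PEG libraries lay above every input library, with or without replicate 1. On the same scale the 22 variants took 5485 ± 428 in input, 4708 ± 99.9 in mock, 4765 ± 175 with dsRNA, 4866 ± 329.7 with silvestrol and 6123 ± 258 in PEG, and in the same 9 pairs they were at 0.802 to 0.928 of input. Without H1F0, the variant with the most counts, the means of the other 21 in mock, dsRNA, silvestrol and PEG were at 0.750, 0.748, 0.754 and 1.34 of the input mean. For the replication-dependent genes these ratios of means were 0.755, 0.733, 0.721 and 1.75. Counts are relative to all other RNA in a library, so more of an mRNA in a pellet and less of the rest cannot be told apart. For the level in an extract, the number of S-phase cells and the histone mRNA per cell cannot be told apart either. The treatments were added to extract, after the cells had been lysed.

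**Figure D1:**
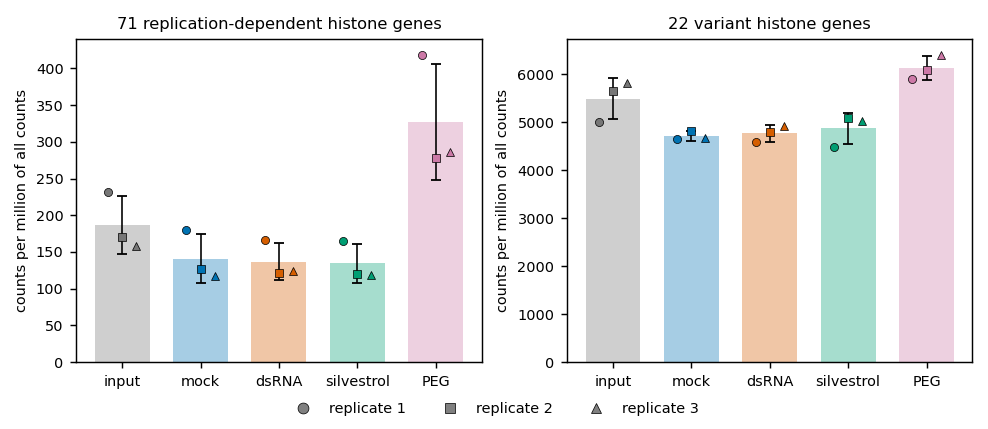
Counts on the 71 replication-dependent (left) and 22 variant (right) histone genes in each library as CPM without TMM scaling, for the 5 groups on the horizontal axis; points are the 3 replicates, bars their mean and lines ± SD. The PEG libraries stand above all others on the left, and replicate 1 is the highest of its group in all 5 groups there.

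To set levels of different genes side by side, CPM was divided by the summed exon length of each gene model. That length is not the length of 1 transcript. It was 17730 nt in H2AFY, but 381 nt in HIST1H2BK and 642 nt in HIST1H1C, whose models held coding bases only. The order below thus depends on the annotation and on the poly(A) selection. In input H1F0, a linker histone of quiescent and differentiated cells, was highest at 817 ± 86.9 CPM per kb (mean ± SD, n = 3), followed by H1FX, another linker histone, at 398 ± 17.4, H2AFZ, which encodes H2A.Z, at 319 ± 29.5, and H3F3B, 1 of the 2 genes for the replication-independent H3, at 164 ± 15.1. The replicate ranges of these 4 neighbours did not overlap. H2AFX came next at 141 ± 4.05, and its range overlapped that of HIST1H2BK, the highest replication-dependent gene, at 103 ± 42.3. From there to HIST1H1C at 62.4 ± 3.96, each gene's range overlapped that of the next. All other replication-dependent genes averaged under 13 CPM per kb. In PEG, H1F0 (722 ± 75.1), H2AFZ (668 ± 72.5) and H1FX (633 ± 80.5) overlapped each other in that order, and HIST1H1C at 186 ± 9.96 and HIST1H2BK at 178 ± 35.9 followed H3F3B.

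The counts of the replication-dependent class were concentrated in few genes. HIST1H1C, a linker histone H1 gene, held 21.0% of the counts on the 32 kept genes and HIST1H2BK, an H2B gene, 19.02%. These 2 with HIST2H2BE held 50.05%, and 8 genes held 79.59%. Of the 32 genes 27 lie on chromosome 6, 4 on chromosome 1 and 1 on chromosome 12.

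The filter on counts bears on which genes could be seen. Of the 32 replication-dependent genes, 21 reached 10 counts in 2 replicates in every condition, as did all 9 variants. Another 8 did not reach it in input: HIST1H1E, HIST1H4B, HIST1H2AH, HIST1H1A, HIST1H3B, HIST1H4A, HIST2H2AB and HIST1H2BE. HIST1H2BG, HIST1H2AI and HIST1H4K reached it in input but not in PEG. HIST1H1A, HIST1H4A and HIST2H2AB entered through PEG alone. For all 8 a higher value in a pellet was part of how they entered, so their changes against input are given as descriptions, with an adjusted p only where a call was lost. Counts over the 32 genes include them, and the main counts are therefore also given for the 21.

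In the mock, dsRNA and silvestrol pellets most replication-dependent mRNAs were not called, and a few moved in opposite directions. Against input, 4 of 32 were higher and 2 lower in mock (13.0% and 13.1% of all genes tested), 4 higher and 3 lower with dsRNA (16.3% and 15.9%), and 4 higher and 4 lower with silvestrol (14.9% and 15.1%). In each comparison the 4 higher genes were HIST1H1E, HIST1H4B, HIST1H2AH and HIST1H4E; the 3 comparisons share the input libraries and are not independent. The first 3 of these had not reached the filter in input. Of the 21 genes that passed in every condition, 1 was higher in each, HIST1H4E, while 2 were lower in mock, 3 with dsRNA and 4 with silvestrol, with median log2 fold changes of -0.50, -0.42 and -0.54 beside 0.02, 0.03 and 0.03 for all genes tested. Library size alone as the scaling moved the share of higher genes among all those called in mock from 49.83% to 60.0% and left 4 of the 32 higher and 2 lower. Of the 21 it left 1 higher and 2 lower.

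HIST1H1E (chr6:26156354-26157107), a linker histone H1 gene, had the largest log2 fold change of the histone genes in each of the 3 comparisons. It entered through the pellets, not through input. Its level was 0.411, 0.439 and 0.196 CPM in input, from 9, 21 and 7 counts, and 2.39, 2.53 and 1.75 CPM in mock. With dsRNA it was 2.52, 2.87 and 2.28 CPM and with silvestrol 3.12, 2.70 and 2.10. Every pellet library lay above every input library. As a description, the log2 fold changes were 2.55 ± 0.32 (SE) in mock, 2.76 ± 0.30 with dsRNA and 2.80 ± 0.32 with silvestrol.

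HIST1H4E, whose stem-loop is printed first, was the gene of the 21 that rose. It lies at chr6:26204552-26206038 and stood at 1.28, 1.13 and 1.07 CPM in input, 2.36, 2.58 and 2.28 in mock, 2.50, 2.98 and 2.72 with dsRNA and 2.33, 3.03 and 1.59 with silvestrol. No pellet library fell within the input range. Its log2 fold changes were 1.07 ± 0.20 (SE, adjusted p = 0.00818), 1.27 ± 0.21 (SE, adjusted p = 0.00385) and 1.02 ± 0.28 (SE, adjusted p = 0.0240) in that order. With silvestrol the call was lost without input replicate 2 or 3 or silvestrol replicate 1 or 2, at 0.79 to 0.99 on the log2 scale and an adjusted p of 0.0512 to 0.0976.

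HIST1H4B and HIST1H2AH, an H2A gene, were chosen for naming after their values were seen and, like HIST1H1E, entered through the pellets. HIST1H4B had 2, 4 and 3 counts in input and 19, 21 and 27 in mock, and its log2 fold changes were 2.20 ± 0.34 (SE) in mock, 2.28 ± 0.34 with dsRNA and 1.76 ± 0.36 with silvestrol. HIST1H2AH had 4, 5 and 2 counts in input and 14, 30 and 12 in mock, with 1.73 ± 0.45, 1.83 ± 0.41 and 1.71 ± 0.40. The mock and input libraries of both did not overlap, and DESeq2 gave no adjusted p to HIST1H2AH in any of the 3 comparisons or to HIST1H4B in mock and silvestrol. With the GC offset HIST1H2AH was not called in mock (adjusted p = 0.0686) or silvestrol (adjusted p = 0.0506). HIST1H2AH in mock stayed called in 2 of 6 fits that left out 1 library, with log2 fold changes of 1.30 to 2.00 over the 6 and an adjusted p of up to 0.0944.

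HIST2H2AC and HIST1H1C were lower in these pellets. HIST2H2AC (chr1:149886975-149887364), an H2A gene of the chromosome 1 cluster, was measured at 2.51, 3.28 and 2.75 CPM in input, 0.993, 1.19 and 1.01 in mock, 1.02, 1.16 and 1.09 with dsRNA and 1.06, 1.20 and 0.633 with silvestrol, so every pellet library lay below input. Its log2 fold changes were -1.33 ± 0.21 (SE, adjusted p = 0.00510), -1.30 ± 0.21 (SE, adjusted p = 0.00361) and -1.48 ± 0.27 (SE, adjusted p = 0.00567). HIST1H1C (chr6:26055787-26056428) went from 42.8, 37.8 and 39.4 CPM in input to 25.7, 20.4 and 17.0 in mock, 23.4, 19.5 and 19.2 with dsRNA and 21.6, 19.8 and 20.4 with silvestrol, again without overlap. It fell by 0.88, 0.90 and 0.91 on the log2 scale (adjusted p = 0.00816, 0.00290 and 0.00255). HIST1H1E, the linker gene described above, entered through the pellets, so no contrast between it and HIST1H1C was tested.

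**Figure D2:**
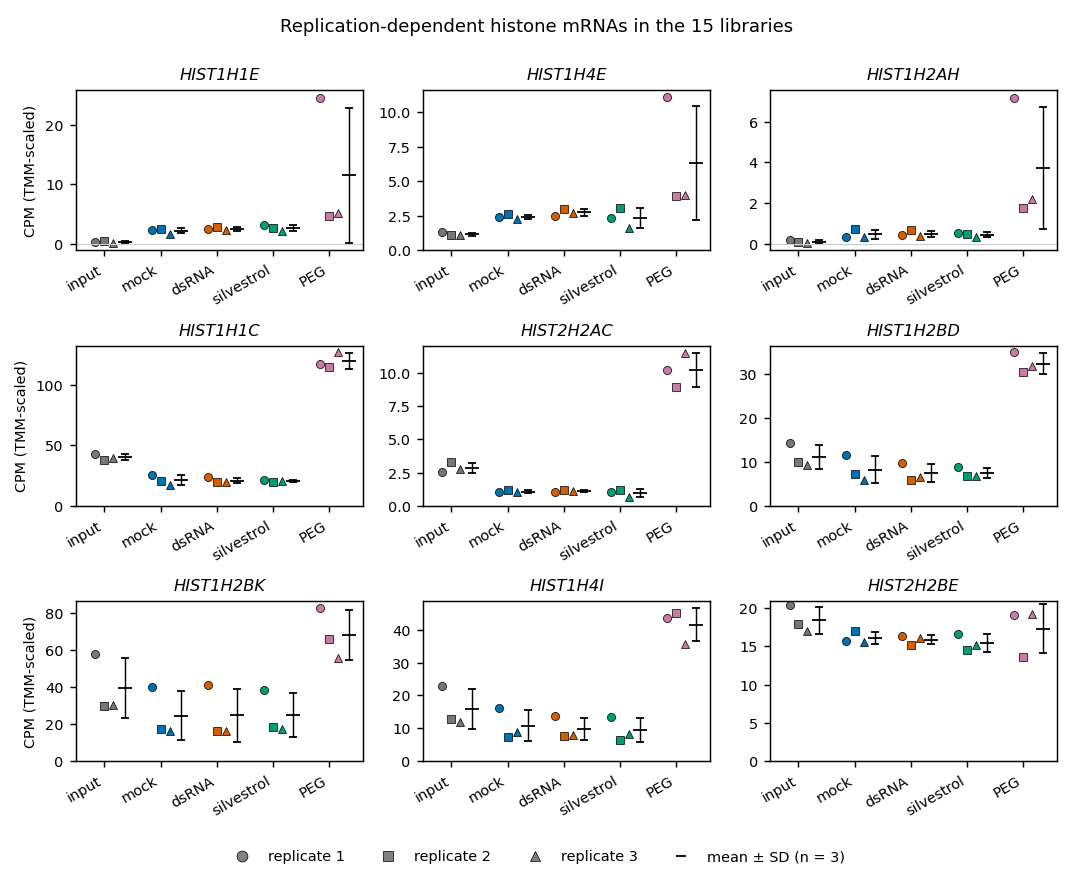
TMM-scaled CPM of 9 replication-dependent genes in the 15 libraries, each panel with its own linear axis from 0; points are replicates and lines the mean ± SD of 3. HIST1H1E, HIST1H4E and HIST1H2AH are lowest in input, HIST1H1C and HIST2H2AC are lower in mock, dsRNA and silvestrol than in input and highest in PEG, and HIST1H2BK is highest in replicate 1 of every group.

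The remaining calls were few and close to the threshold. HIST1H2AC, an H2A gene, was lower with dsRNA at -0.89 ± 0.30 (SE, adjusted p = 0.0495), while silvestrol gave -0.91 ± 0.30 (SE, adjusted p = 0.0501) and mock -0.75 ± 0.32 (SE, adjusted p = 0.118). HIST4H4, the single H4 gene on chromosome 12, was lower with silvestrol at -0.67 ± 0.19 (SE, adjusted p = 0.0291), and HIST1H4J, an H4 gene with a near-identical copy, at -0.99 ± 0.31 (SE, adjusted p = 0.0426). The dsRNA call of HIST1H2AC was lost without input replicate 1 or 2 or dsRNA replicate 2 or 3, at -0.98 to -0.55 and an adjusted p of 0.0664 to 0.14. HIST1H4J with silvestrol stayed called in 1 of 6 such fits and HIST4H4 in 2, at an adjusted p of up to 0.143 and 0.103. Under library size alone none of these 3 was called (adjusted p = 0.0534, 0.0651 and 0.0537), and with the GC offset HIST1H2AC (adjusted p = 0.158) and HIST4H4 (adjusted p = 0.0829) were not.

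HIST1H2BK differed between replicates by as much as between groups. It was measured at 58.0, 29.8 and 30.4 CPM in input, 39.8, 17.6 and 16.2 in mock, 41.3, 16.5 and 16.5 with dsRNA and 38.5, 18.2 and 17.6 with silvestrol. Replicate 1 was the highest of every group, and each pellet library lay below the input library of its own number. Without the pairing its log2 fold change in mock was -0.63 ± 0.39 (SE, adjusted p = 0.269), and with the replicate number as a block it was -0.69 (adjusted p = 9.27e-07), with -0.68 for dsRNA (adjusted p = 5.69e-04) and -0.65 for silvestrol (adjusted p = 8.50e-05). HIST1H4I, an H4 gene, went from -0.50 in mock without the block (adjusted p = 0.325) to -0.52 with it (adjusted p = 1.73e-04).

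With the replicate block, 11 replication-dependent genes were lower in mock, 9 with dsRNA and 13 with silvestrol, beside 25.9%, 24.6% and 24.7% of all genes tested in that fit. The higher ones stayed at 4 in each comparison, beside 26.7%, 25.8% and 25.3%. They were again HIST1H1E, HIST1H4B, HIST1H2AH and HIST1H4E, of which HIST1H4E alone had passed in every condition. The blocked calls in mock added HIST1H2AC, HIST1H2BD, HIST1H2BJ, HIST1H2AG, HIST1H4I, HIST1H2BK, HIST1H3H, HIST1H4J and HIST4H4 to HIST2H2AC and HIST1H1C. HIST1H2BD, an H2B gene, had a blocked log2 fold change of -0.42 in mock (adjusted p = 0.00263). HIST1H3E and HIST1H4H were not called with or without the block in mock, at -0.21 and -0.26 without it. HIST2H2BE, the H2B gene with 1729 annotated bases after its stem-loop, showed -0.15, -0.16 and -0.21 and was not called.

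The variant mRNAs were mostly lower in the 3 pellets, with 1 exception. Of the 9, 7 were lower and 1 higher in mock, 6 lower and 1 higher with dsRNA, and 6 lower and 1 higher with silvestrol, beside the shares of all genes given above. The median log2 fold changes of the 9 were -0.59, -0.66 and -0.59. H3F3A was measured at 187, 276 and 278 CPM in input and 103, 117 and 123 in mock, with 89.6, 109.8 and 128 with dsRNA and 89.9, 118 and 128 with silvestrol, all pellets below input. Its log2 fold changes were -1.06 ± 0.17 (SE, adjusted p = 0.00560), -1.12 ± 0.19 (SE, adjusted p = 0.00443) and -1.09 ± 0.20 (SE, adjusted p = 0.00536), larger in size than those of H3F3B, which encodes the same protein, at -0.45, -0.41 and -0.35. H3F3B was called in mock (adjusted p = 0.0330) and not with dsRNA (adjusted p = 0.0504) or silvestrol (adjusted p = 0.104), and the difference between the genes was not tested. Its mock call was lost with the GC offset (adjusted p = 0.0519), under library size alone (adjusted p = 0.0509) and without replicate 2 or 3 of either group (adjusted p = 0.0688 to 0.134).

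The genes for the H2A variants split. H2AFZ stood at 656, 772 and 775 CPM in input and 497, 432 and 396 in mock, 445, 425 and 401 with dsRNA and 414, 410.0 and 412 with silvestrol, without overlap with input. It fell by 0.69, 0.74 and 0.79 on the log2 scale (adjusted p = 0.0114, 0.00468 and 0.00442). H2AFV, the second H2A.Z gene, fell by 0.51, 0.66 and 0.59. The macroH2A genes H2AFY and H2AFY2, whose products are enriched on the inactive X chromosome, fell by 0.82, 0.88 and 0.90, and by 0.84, 0.86 and 0.89. In mock the call of H2AFV was lost without replicate 2 or 3 of either group (adjusted p = 0.0556 to 0.115) and with the GC offset (adjusted p = 0.101), and that of H2AFZ was lost without mock replicate 2 or 3 (adjusted p = 0.0513 and 0.0665).

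H2AFX encodes H2A.X, which is phosphorylated at DNA breaks, and was the variant that rose. It was measured at 219, 231 and 231 CPM in input, 357, 288 and 344 in mock, 426, 275 and 324 with dsRNA and 382, 305 and 324 with silvestrol. All 9 pellet libraries lay above the 3 input libraries, though the dsRNA libraries were widely spread. The log2 fold changes were 0.58 ± 0.13 (SE, adjusted p = 0.0136), 0.64 ± 0.17 (SE, adjusted p = 0.0187) and 0.62 ± 0.13 (SE, adjusted p = 0.0106). Its GC content was 66.4%, and over all genes the Spearman correlation of GC content with the log2 fold change was 0.367 in mock, 0.409 with dsRNA and 0.406 with silvestrol. With an offset for GC content the log2 fold change of H2AFX was 0.02 in mock (adjusted p = 0.936), -0.01 with dsRNA (adjusted p = 0.971) and -0.02 with silvestrol (adjusted p = 0.950). H1FX, of 68.6% GC, went the other way: it fell by 0.59 in mock (adjusted p = 0.00903), 0.45 with dsRNA (adjusted p = 0.0238) and 0.52 with silvestrol (adjusted p = 0.0217), and the offset gave -1.21 in mock. Without input replicate 2 or 3 or 1 of the pellet libraries, calls of H2AFX were lost in mock and dsRNA at an adjusted p of 0.0529 to 0.0686, and calls of H1FX in all 3 comparisons at 0.0517 to 0.0966, with the sign kept.

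H1F0, the most abundant histone mRNA, was not called in any comparison with input by edgeR with TMM. It was measured at 1696, 1954 and 2098 CPM in input, 1803, 1908 and 1856 in mock, 1817, 1946 and 1996 with dsRNA, 1825, 2082 and 2075 with silvestrol and 1619, 1564 and 1893 in PEG, ranges that overlapped. The log2 fold changes were within 1 SE of 0 in the first 3 pellets, at 0.06 ± 0.14 (SE) with dsRNA and 0.10 ± 0.16 with silvestrol, and -0.15 ± 0.15 in PEG. Under library size alone H1F0 was lower in PEG, at -0.51 against input (adjusted p = 0.015) and -0.60 against mock (adjusted p = 0.00301).

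**Figure D3:**
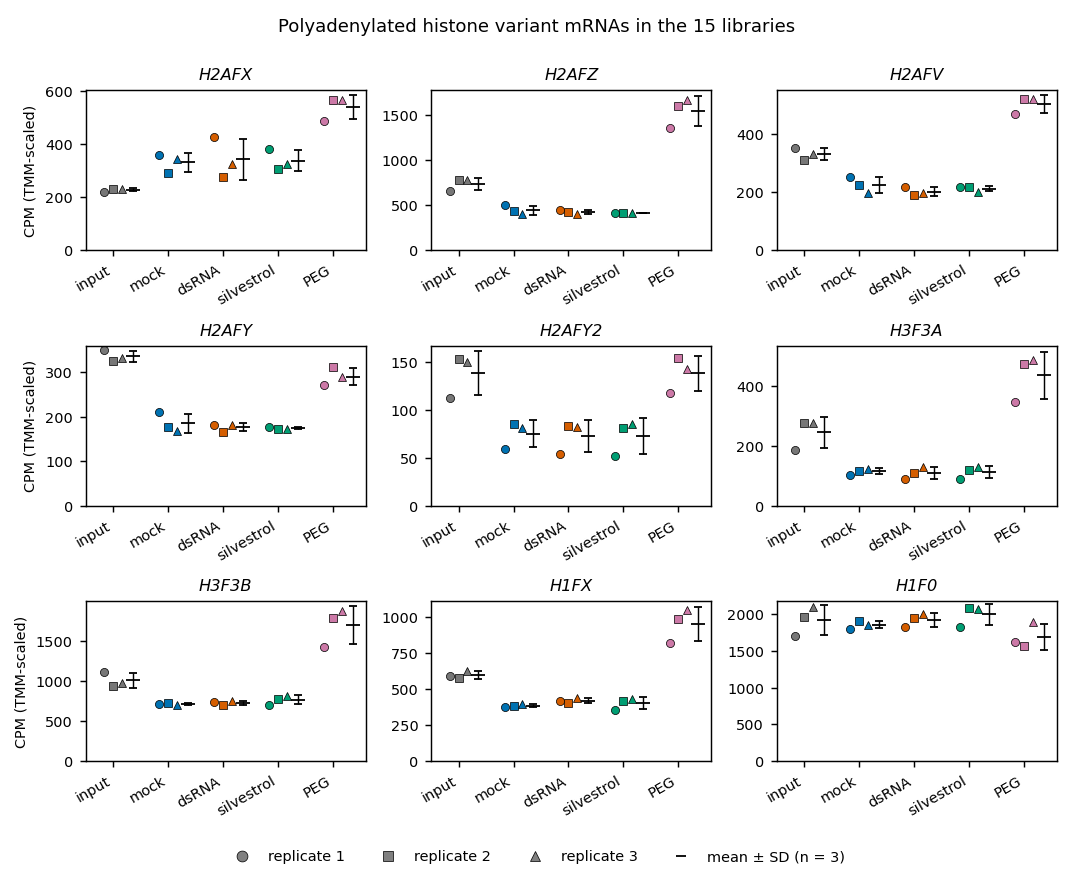
TMM-scaled CPM of the 9 kept variant genes in the 15 libraries, each panel with its own linear axis from 0; points are replicates and lines the mean ± SD of 3. H2AFX is higher than input in every pellet, 7 genes are lower in mock than in input, and 6 are higher in PEG than in input.

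The pellets with dsRNA and silvestrol were not told apart from mock in any histone gene. No member was called in dsRNA against mock, silvestrol against mock or dsRNA against silvestrol by edgeR or DESeq2. Of all genes tested edgeR called 0.0%, and DESeq2 called 52, 0 and 52 genes in that order, all lower. DESeq2 gave no adjusted p to 17 of the 32 replication-dependent genes for dsRNA against mock. For dsRNA against silvestrol it gave none to 23, so it could not call these. At an unadjusted p under 0.05 by edgeR there were 0 of the 41, beside 475, 141 and 426 of 20855 genes tested. The largest absolute log2 fold changes were 0.84, 0.65 and 0.86, and the median SE over the 41 genes was 0.28, 0.261 and 0.272. With the replicate block 0 were called, beside 2.54%, 0.00959% and 2.16% of all genes tested, and 3 (H1FX, HIST1H2BE and H2AFV), 1 (HIST1H4I) and 2 (HIST1H2BE and HIST1H2AG) had an unadjusted p under 0.05. For HIST1H1C, an abundant member, the log2 difference was -0.02 ± 0.16 (SE, 95% CI -0.34 to 0.29) for dsRNA against mock and -0.03 ± 0.15 (SE, 95% CI -0.32 to 0.27) for silvestrol against mock. These intervals belong to 1 abundant gene and are not adjusted over all genes, so they are no limit of detection. Larger changes in other members, up to the 0.84, 0.65 and 0.86 above, also went uncalled with 3 libraries per group.

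In PEG the calls in both classes went upward, and for the replication-dependent class their number depended on PEG replicate 1. Of the 21 replication-dependent genes that passed in every condition, 13 were higher than input and 0 lower (21.0% and 21.9% of all genes tested), with a median log2 fold change of 1.21 beside -0.05 for all genes tested. Without PEG replicate 1, which leaves 2 PEG libraries, 6 of the 21 were higher and 1 lower (19.8% and 22.9% of all genes tested), with a median of 0.80. The 6 were HIST1H1C, HIST2H2AC, HIST1H2BD, HIST1H4E, HIST1H4I and HIST1H4J. The 24 genes that reached the filter in input gave 13 higher and 0 lower, and 6 and 2 without that library. Over all 32, the genes that entered through pellets included, 20 were higher and 0 lower, and 13 and 2 without it. Of the 9 variants 6 were higher and 0 lower, with or without PEG replicate 1. DESeq2 also called 20 and 6 higher and 0 lower in either class, and at an unadjusted p under 0.05 by edgeR 1 replication-dependent gene and 0 variants were lower. Against mock 18 of the 21 were higher and 0 lower (27.0% and 27.6% of all genes tested), or 15 and 0 without PEG replicate 1 (27.9% and 25.9%), and 25 of the 32, or 21 without it. Of the 9 variants 8 were higher than mock in both. No member was lower than mock by DESeq2 or at an unadjusted p under 0.05 by edgeR. With library size alone as the scaling, which moved the median of all genes from -0.05 to -0.39 and the share of higher genes among those called from 49.03% to 23.96%, 16 replication-dependent genes, 9 of them among the 21, and 4 variants were higher than input and 1 and 2 lower (11.4% and 36.1% of all genes tested). Against mock that scaling moved the median of all genes to -0.57 and the share of higher genes among those called from 49.5% to 25.22%, and gave 17 replication-dependent genes higher, 11 of them among the 21, and 1 lower, with 5 variants higher and 1 lower (15.6% and 46.1% of all genes tested).

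HIST1H1C went from 42.8, 37.8 and 39.4 CPM in input to 118, 115 and 127 in PEG, and each PEG library lay above every library of the other groups. The log2 fold change was 1.61 ± 0.13 (SE, adjusted p = 1.47e-04) against input and 2.55 ± 0.17 (SE, adjusted p = 2.23e-06) against mock. HIST2H2AC went from 2.51, 3.28 and 2.75 CPM to 10.2, 8.94 and 11.5, with 1.84 ± 0.18 (SE, adjusted p = 1.79e-04) against input and 3.23 ± 0.20 (SE, adjusted p = 2.23e-06) against mock. These genes, lower than input in the other pellets, were thus higher than input in PEG, with closely spaced PEG replicates. Without PEG replicate 1 they gave 1.59 ± 0.12 (SE, adjusted p = 3.18e-04) and 1.81 ± 0.20 (SE, adjusted p = 6.72e-04) against input.

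HIST1H4I and HIST1H2BD, with 212 and 39 annotated bases after the stem-loop, rose as well. HIST1H4I was at 22.9, 13.0 and 11.8 CPM in input and 43.7, 45.2 and 35.8 in PEG, a log2 fold change of 1.41 ± 0.25 (SE, adjusted p = 0.00176). HIST1H2BD was at 14.2, 9.86 and 9.20 CPM and 34.8, 30.3 and 31.7, a change of 1.57 ± 0.19 (SE, adjusted p = 3.22e-04). Both stayed called without PEG replicate 1, at 1.36 ± 0.28 (SE, adjusted p = 0.00679) and 1.49 ± 0.20 (SE, adjusted p = 0.00116). HIST1H2BK gave 0.81 ± 0.28 (SE, adjusted p = 0.0371), with overlapping libraries. Its call was lost without input replicate 2 or 3 or PEG replicate 1 or 2, at 0.63 to 0.81 and an adjusted p of 0.0785 to 0.119, and under library size alone (adjusted p = 0.150). HIST2H2BE, at 20.4, 17.9 and 17.0 CPM in input and 19.1, 13.6 and 19.2 in PEG, gave -0.06 ± 0.17 (SE, adjusted p = 0.805) and was not called, nor were HIST1H2AC (0.57), HIST1H2AG (0.25), HIST1H3E (0.09) or HIST1H4H (0.49).

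The largest fold changes were in genes with few counts in input, most of which entered through pellets and are described without a test. HIST1H1E reached 24.6, 4.78 and 5.26 CPM in PEG, a log2 fold change of 4.79 ± 0.69 (SE). HIST1H1A, a linker histone gene, had 0, 6 and 1 counts in input and 104, 18 and 39 in PEG, and entered through PEG alone. HIST1H2AH gave 4.38 ± 0.60, HIST1H4B 3.88 ± 0.71 and HIST1H3B, an H3 gene, 3.53 ± 0.63. HIST1H4E, which passed in every condition, gave 2.40 ± 0.41 (SE, adjusted p = 0.00140). By family, among the 21 genes, the 1 linker gene was higher, as were 5 of 7 H4, 2 of 3 H3, 1 of 3 H2A and 4 of 7 H2B. Without PEG replicate 1 the linker gene, 3 H4, 0 H3, 1 H2A and 1 H2B gene were higher and 1 H4 gene lower; the H3 genes HIST1H3A and HIST1H3H were then at 1.35 and 0.71 (adjusted p = 0.0647 and 0.0551).

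In PEG replicate 1 these genes stood well above the other PEG replicates. HIST1H1E had 322, 93 and 102 counts there in replicate order, and HIST1H4E 11.1, 3.91 and 3.97 CPM. Over the 32 genes the ratio of replicate 1 to the mean of the other 2 replicates had a median of 1.6 and reached 5.80, and it was over 2 in 12 genes, against 4 to 6 genes in the other groups. Without this library HIST1H1E was at 3.61 ± 0.32 (SE) against input, HIST1H2AH at 3.54 ± 0.39, HIST1H4B at 2.65 ± 0.40 and HIST1H3B at 2.61 ± 0.46, again as descriptions, and HIST1H4E at 1.72 ± 0.23 (SE, adjusted p = 0.00111). HIST1H4B against mock, a group in which it had reached the filter, went from 1.90 ± 0.61 (SE, adjusted p = 0.0202) to 0.70 ± 0.39 (SE, adjusted p = 0.163). The 2 genes of the 32 that were then lower than input were HIST4H4 and HIST1H2AI.

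**Figure D4:**
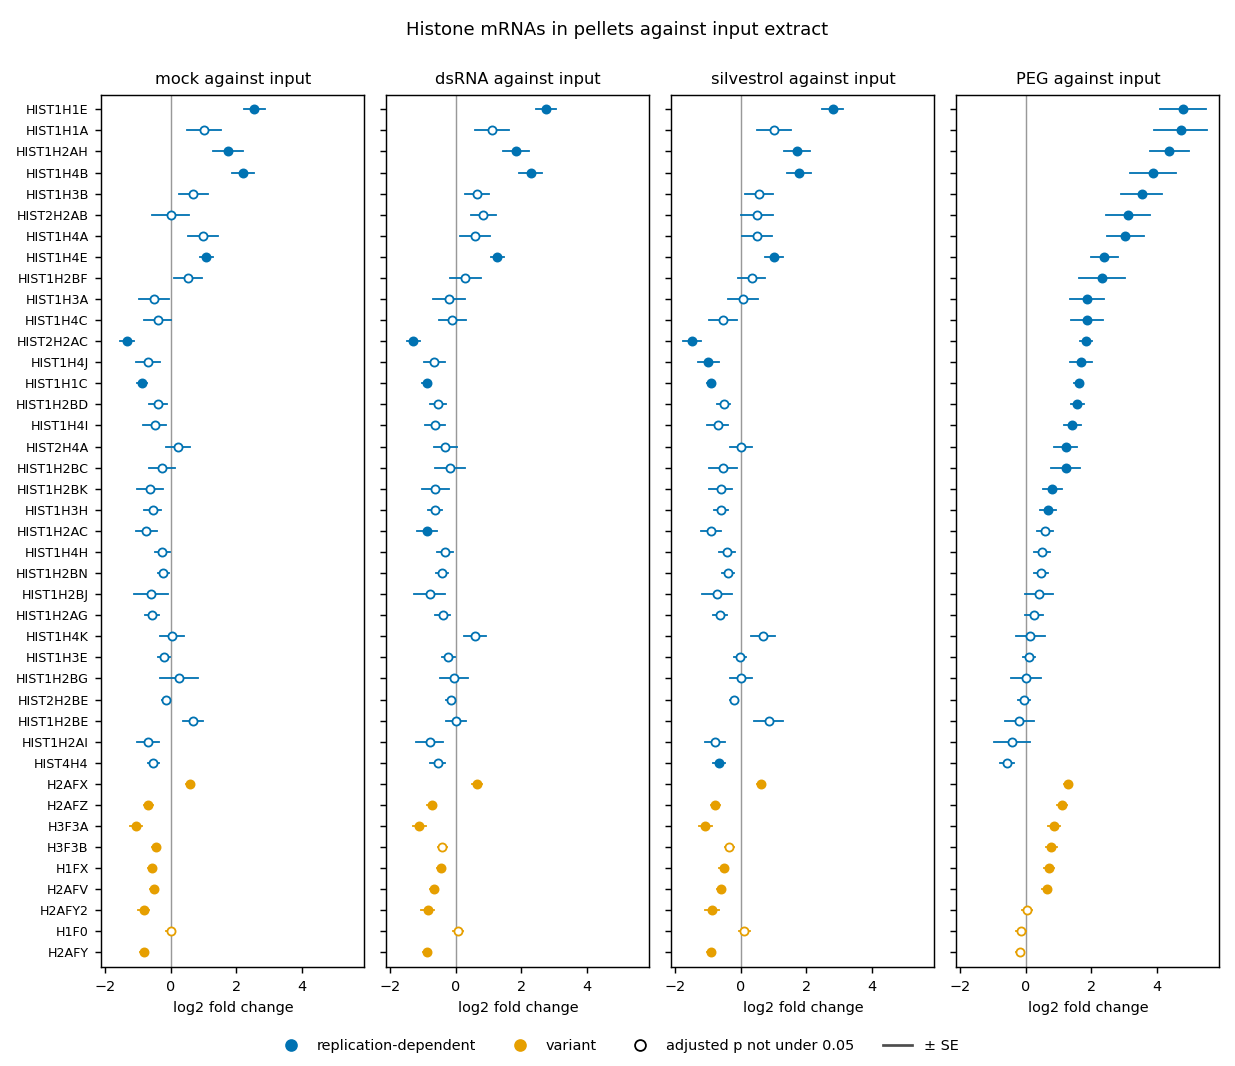
Log2 fold change over input with its SE for the 41 kept histone genes in 4 panels, mock, dsRNA, silvestrol and PEG; filled points have an adjusted p under 0.05. In the first 3 panels filled points lie on both sides of 0, with 14, 14 and 15 of them, and in PEG all 26 lie above 0, of which 7 are replication-dependent genes that had not reached the count filter in input.

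The summed exon length of the gene model and the PEG change went together among the replication-dependent genes. The 9 variants were not part of these correlations. Over the 21 replication-dependent genes that passed in every condition, the Spearman correlation of exon length with the log2 fold change was -0.677 against input and -0.869 against mock, as a description over genes that share libraries and depth. With PEG replicate 1 left out it was -0.697 and -0.823. Over all genes tested it was -0.304 against input and -0.289 without that library. Of all genes tested 21.0% were higher and 21.9% lower than input in PEG, or 19.8% and 22.9% without PEG replicate 1. Of 9 of the 21 genes with exons of at most 1000 nt, 8 were higher than input, with a median of 1.61. Of 12 longer genes 5 were, with a median of 0.53. Without PEG replicate 1 these counts were 4 and 2, with medians of 1.35 and 0.43, and 1 longer gene was lower. Models with coding bases only, which are short by construction, had 4 of 4 genes higher, or 2 without that library, and those with noncoding bases 9 of 17, or 4. Over all 32 genes 15 of 18 short and 5 of 14 longer genes were higher, or 11 and 2 without PEG replicate 1. All 7 of the higher genes that had not reached the filter in input are among the short ones. Among 142 other protein-coding genes of at most 1000 nt that passed in every condition, 96 were higher than input and 8 lower, with a median of 1.04, and 94 and 8 without that library. In mock these 142 had 13 higher and 41 lower (13.0% and 13.1% of all genes tested). With dsRNA they had 14 and 43 (16.3% and 15.9%), and with silvestrol 13 and 47 (14.9% and 15.1%). Among the 14 genes of the 21 in which the stem-loop was found, 8 were higher in PEG, and of the other 7, 5 were, or 4 and 2 without PEG replicate 1.

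**Figure D5:**
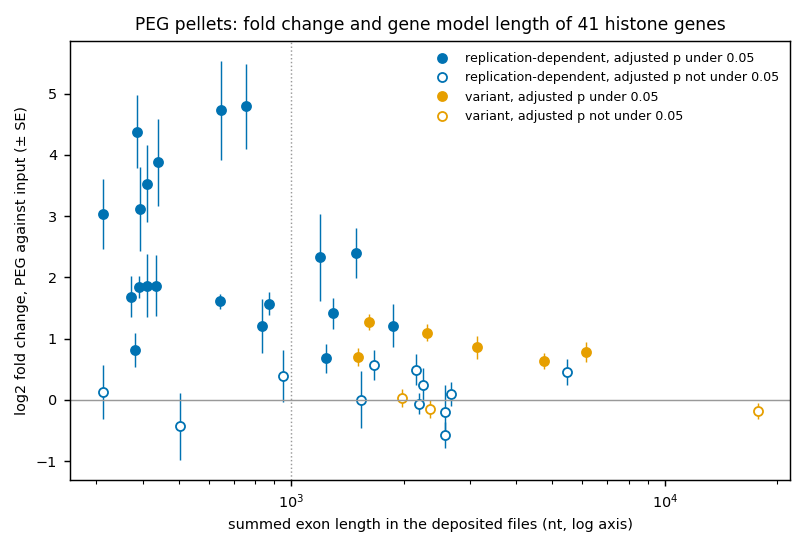
Log2 fold change of PEG over input, with its SE, against exon length in nt on a log axis for the kept histone genes; the dotted line marks 1000 nt. Of the 18 replication-dependent genes left of the line 15 were called higher, 7 of them genes that had not reached the count filter in input. Of the 14 right of it 5 were, beside 21.0% of all genes tested. Without PEG replicate 1 the counts were 11 and 2, beside 19.8%.

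RNAs that lack a tail for other reasons were measured beside them. Of 32 listed small RNAs without poly(A) tails 7 were tested, and 3 of these, RN7SL2, RN7SL3 and SNORD3A, passed the count filter in every condition. All 3 were higher in PEG than in input, beside 21.0% of all genes tested. RN7SL2, an RNA of the signal recognition particle, was at 39.9, 33.2 and 18.3 CPM in input and 544, 172 and 175 in PEG. Its log2 fold change was 3.32, or 2.51 without PEG replicate 1 (adjusted p = 6.84e-04). RN7SL3, of the same particle, rose by 2.38, or 1.56 without that library (adjusted p = 0.0440), and SNORD3A, the U3 RNA of ribosome assembly, by 2.30, or 1.77 (adjusted p = 0.00756). The mock libraries of RN7SL2, at 21.5, 195.9 and 130.3 CPM, overlapped those of PEG. Of the other 4, SCARNA7 and SCARNA10 entered through PEG alone and SCARNA13 and RNU6-1 did not reach the filter in input, so they are not counted. In mock 0 of the 7 were called by edgeR or DESeq2, with 1 higher and 0 lower at an unadjusted p under 0.05 by edgeR, and 1 was higher with dsRNA and 1 with silvestrol. Of 4 nuclear RNAs tested, MALAT1 was higher in PEG (1.44), NEAT1 (-0.96) and TUG1 (-0.84) were lower, and KCNQ1OT1 was not called (-0.58). Leaving out PEG replicate 1 put these at 1.14, -1.25, -0.86 and -0.89, and KCNQ1OT1 was also lower (adjusted p = 0.0139). In the other pellets 0 of the 4 were called by edgeR or DESeq2, and at an unadjusted p under 0.05 1 was higher in mock, 1 with dsRNA and 0 with silvestrol. The part of tail-less RNA and of nuclear RNA in the PEG values of the histone genes was not tested.

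Against input, H2AFX and H2AFZ had the largest PEG changes of the variants. Against mock the order was different, with H3F3A at 1.98 and H2AFZ at 1.85 first and H2AFX the seventh of 9 at 0.75 ± 0.14 (SE), a call that library size alone ended (0.24, adjusted p = 0.0994). H2AFX went from 219, 231 and 231 CPM in input to 486, 563 and 565, a log2 fold change of 1.28 ± 0.13 (SE, adjusted p = 1.82e-04), and the offset for GC content left it called (adjusted p = 6.64e-04). H2AFZ went from 656, 772 and 775 CPM to 1348, 1601 and 1663, a change of 1.10 ± 0.15 (SE, adjusted p = 4.40e-04). H3F3A gave 0.86 ± 0.18 (SE, adjusted p = 0.00431), with 347, 473 and 489.6 CPM in PEG, all above input. H3F3B gave 0.78 ± 0.16 (SE, adjusted p = 0.00394), H1FX 0.70 ± 0.14 (SE, adjusted p = 0.00343) and H2AFV 0.64 ± 0.13 (SE, adjusted p = 0.00378).

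The macroH2A genes did not follow. H2AFY was at 271, 310.1 and 288 CPM in PEG against 349, 325 and 331 in input, a log2 fold change of -0.18 ± 0.13 (SE, adjusted p = 0.278). H2AFY2 was at 118, 154 and 143 against 113, 153 and 151, with 0.03 ± 0.15 (SE, adjusted p = 0.893). With library size alone H2AFY was lower than input (adjusted p = 0.00271), while against mock both were higher, at 0.70 and 0.93, calls that library size alone ended (adjusted p = 0.185 and 0.0506). The call of H1FX in PEG was lost with the GC offset (adjusted p = 0.175), and those of H3F3A and H2AFV under library size alone (adjusted p = 0.0576 and 0.0523).

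The mRNAs of proteins that make or degrade histone mRNA were examined as a list of 23 genes. SLBP, which binds the stem-loop, was not called in any pellet, at 0.04 ± 0.17 (SE) in mock, 0.06 ± 0.19 with dsRNA, 0.17 ± 0.17 with silvestrol and 0.06 ± 0.15 in PEG. Of the list 4 were higher and 6 lower in mock, or 17.4% and 26.1% beside 13.0% and 13.1% of all genes tested. With dsRNA 5 and 7 were (21.7% and 30.4% beside 16.3% and 15.9%), and with silvestrol 4 and 6 (17.4% and 26.1% beside 14.9% and 15.1%). In PEG 6 were higher and 8 lower (26.1% and 34.8% beside 21.0% and 21.9%), 5 and 8 without PEG replicate 1, and 3 and 13 under library size alone (beside 11.4% and 36.1%). The higher shares lay near those of all genes. UPF1, a helicase needed for degradation of these mRNAs, rose by 0.77, 0.86 and 0.82 in mock, dsRNA and silvestrol and gave -0.46 in PEG. CPSF3, the endonuclease of the cleavage step, gave -0.95, -1.10 and -1.01 and then 0.59 in PEG, and LSM10, a subunit of the U7 snRNP, gave 1.21 in PEG.

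Histone chaperones, which carry histones to DNA, and S-phase mRNAs with poly(A) tails served as neighbours of the pathway. Of 24 chaperone genes 7 were higher and 6 lower in mock (29.2% and 25.0%), 9 and 6 with dsRNA (37.5% and 25.0%), 8 and 7 with silvestrol (33.3% and 29.2%), and 4 and 4 in PEG (16.7% and 16.7%), to be read beside the shares of all genes just given. In PEG library size alone gave 3 and 9, and leaving out PEG replicate 1 gave 3 and 4. ASF1A, an H3-H4 chaperone, fell by 1.18, 1.30 and 1.27 in mock, dsRNA and silvestrol, and NAP1L1, an H2A-H2B chaperone, rose by 1.04 in PEG. Of 28 S-phase genes 3 were higher and 7 lower in mock (10.7% and 25.0%), 3 and 10 with dsRNA (10.7% and 35.7%), 3 and 7 with silvestrol (10.7% and 25.0%), and 10 and 3 in PEG (35.7% and 10.7%). In PEG library size alone gave 4 and 7, and leaving out PEG replicate 1 gave 9 and 3. PCNA, the replication clamp, fell by 0.82, 0.87 and 0.82 and rose by 1.04 in PEG, and TK1, thymidine kinase, rose by 1.07 in PEG. Against mock the PEG pellets had 8 higher and 8 lower of the 23 processing genes, 11 and 7 of the 24 chaperones, and 15 and 2 of the 28 S-phase genes, beside 27.0% and 27.6% of all genes tested. Library size alone gave 6 and 15, 5 and 11, and 7 and 8, beside 15.6% and 46.1%.

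Genes whose levels followed those of HIST1H1C, the replication-dependent gene of highest mean CPM, and of H2AFZ were sought. The search ran over all 15 libraries, among genes of at least 5 CPM. For HIST1H1C the closest were CSTF2, a subunit of the cleavage stimulation factor, with a Spearman correlation of 1.0, PSMC5 with 0.996 and FAHD1 with 0.993. For H2AFZ they were RBFA with 0.982, CSTB with 0.979 and MRPL32 with 0.975. These correlations run over 5 groups that differ from each other and are given as a description.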

How the data were processed

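Poly(A)-selected RNA of U2OS extract and of 4 kinds of pellet was sequenced, 15 libraries in all. Per the submitters' processing notes, reads were trimmed with Trimmomatic 0.36, aligned with STAR 2.5.2b to GRCh38 and counted with featureCounts of Subread 1.5.2; the annotation release, strand setting and treatment of reads with several hits are not given in the sources used here. The authors deposited raw counts per gene, without normalisation. The members and lists were chosen with earlier results of these data known.

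Symbols came from GENCODE release 29, in which 56898 of 57500 identifiers matched and 54784, all 41 members among them, had the same start and end. Genes were tested with edgeR 4.0.16 in R 4.3.3 (TMM, quasi-likelihood test, prior count 2, Benjamini-Hochberg adjustment) on the 6 libraries of each of 8 comparisons; SEs came from the F statistic and 95% intervals from the SE. DESeq2 1.42.0, which the study's methods name, was an alternative. A simulation after PEG and input over 20855 genes recovered 152 of 200 planted log2 changes of 1, with 6 other calls, and 197 of 200 changes of 2, with 8. Changes were planted only in genes above a limit on mean counts, so these rates do not cover genes with few counts. All libraries were drawn from 1 common profile, and none was made to stand apart as PEG replicate 1 did. Figures were drawn with matplotlib 3.10.9.

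Pairing was taken from the labels' replicate numbers. Libraries of the same number deviated together from their group means (correlations of 0.144 to 0.919, against -0.864 to 0.728 for different numbers), so a fit with the replicate block was used as the paired alternative. Named were the 3 most abundant replication-dependent genes of each family, variants of at least 5 CPM, the largest rise and fall of each comparison, SLBP and up to 3 rises and falls per list. Alternatives were other scalings, filters and tools, the block, a GC offset (span 0.3), 1 fit of all groups, a prior count of 0.5 and each library left out.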

Additional observations from a re-analysis of the deposited data

How the results depend on the processing

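With the replicate block, which uses the pairing of libraries by number, 23 histone genes were called in mock against input instead of 14. With silvestrol 25 were called instead of 15. Of all genes tested the block called 26.7% higher and 25.9% lower in mock, and 25.3% and 24.7% with silvestrol. With the block and the GC offset there were 23 and 23. The block gave 21 instead of 14 with dsRNA, beside 25.8% higher and 24.6% lower of all genes tested. All calls added with dsRNA were lower than input, and the block ended no call of a named gene. At an absolute log2 fold change over 1 there were 6 in mock, 6 with dsRNA and 6 with silvestrol. At an average log2 CPM of at least 0 PEG against input gave 17 instead of 26. No share of all genes was set beside these counts, which describe the settings only. Relative to nuclear protein-coding counts the variant genes took 4885 CPM in mock and 4950 with dsRNA. H2AFX reversed with the GC offset, at -0.009998 with dsRNA and -0.0167 with silvestrol, and with the block and the offset at -0.02336 and -0.02126.

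Leaving out each library in turn gave 7 to 16 calls in mock, the 7 without mock replicate 3, 11 to 18 with dsRNA and 10 to 17 with silvestrol. PEG gave 21 to 29 against input and 29 to 33 against mock. Shares of all genes are given only for the fit without PEG replicate 1, and these ranges describe the fits only. Of 1283 alternative values of 72 calls of named genes, 1177 stayed on their side of the threshold, 102 were lost with the sign kept and 4 reversed, the 4 of H2AFX. The 72 include calls of HIST1H1E, HIST1H3B and HIST1H1A, genes that entered through pellets. For these genes a value that stayed is no support for a change. Of those lost, 34 fell under the limit of 1 on the log2 scale, 12 went with library size alone and 6 with the GC offset. Without PEG replicate 1 the replication-dependent genes called higher in PEG than in input went from 20 to 13, and from 13 to 6 among the 21 that passed in every condition; that fit has 1 library fewer, and the cause was not tested. The genes with the largest PEG changes had few input counts, and the part of depth in their changes was not tested.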

Other observations

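Genes of histone name that were left out as pseudogenes or antisense genes also carried counts. HIST2H2BC, a pseudogene of the chromosome 1 cluster, had 275, 528 and 376 counts in input, 410, 477 and 357 in mock, and 79, 99 and 96 in PEG. H1FX-AS1, which overlaps H1FX on the opposite strand, had 32, 147 and 99 counts in input and 174, 201 and 187 in mock. H3F3AP4, a processed copy of H3F3A that shares read-length windows with it, had 963, 2562 and 1724 counts in input. It had 744, 885 and 995 in mock and 879, 1847 and 2002 in PEG. All these are raw counts, not scaled for depth. Total counts were 23101982 to 46939993 in input, 32477292 to 39903656 in mock and 15341973 to 25675182 in PEG. Levels of these genes were thus not compared between groups.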
